A study of Rattus norvegicus with 14 samples.

Results

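The genes described here are 8 genes of brown adipocyte heat production, Ucp1, Cidea, Cox8b, Cox7a1, Ppargc1a, Elovl3, Dio2 and Slc27a2, in thoracic aorta of the rat. They were taken by name, as all probe sets with exactly 1 gene symbol in the platform annotation that matched one of the 8, and a gene with several probe sets was represented by the one of highest mean over all arrays. The 8 genes had 10 of the 31042 probe sets tested and are 8 of the 14217 genes named. Transcript abundance was measured on 14 arrays, 1 per sample, in 8 samples labelled A-CRF, from rats with chronic renal failure induced by adenine, and in 6 labelled Control. Both groups were thoracic aorta of Sprague-Dawley rats. The sources used here do not give age, sex, the dose and length of adenine treatment, or whether the fat around the vessel was removed.

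Brown adipocytes burn fatty acids to make heat. Noradrenaline, acting through beta-adrenergic receptors and cyclic AMP, releases fatty acids from lipid droplets and switches on Ucp1, whose protein lets protons leak back into the mitochondrial matrix so that respiration yields heat in place of ATP. The coactivator Ppargc1a drives mitochondrial genes, and Dio2 makes active thyroid hormone within the cell. In rodents the fat that surrounds the thoracic aorta is known to resemble brown fat, so an aortic sample can hold brown adipocytes beside smooth muscle, endothelium and adventitia. In such bulk tissue fewer brown adipocytes and less transcript per brown adipocyte cannot be told apart.

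The array-to-array spread stood out more than the difference between the groups. Over the 8 A-CRF arrays the SD of Ucp1 was the highest of all 31042 probe sets tested, and its values spanned 4.44 log2 units, which is 21.7-fold. The upper end of that span was A-CRF 1 at 9.75, with A-CRF 6 next at 8.42. The lower end, A-CRF 2 at 5.31, was near the lowest values of the table. None of the 8 genes passed the test of A-CRF against Control. Ucp1, Cidea and Cox8b varied together from array to array. Slc27a2 followed them more loosely and was near the lowest values of the table on all but 3 arrays. Cox7a1, Ppargc1a, Elovl3 and Dio2 stayed near the lowest values on all 14 arrays. Values are the deposited numbers, read as log2 units. The base was inferred from their range, 4.82 to 12.64, so each fold holds only if it is 2. A value less than 1 unit above the lowest, that is below 5.82, is called near the lowest value here, and 59.0% of probe sets had such a mean.

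Arrays differed little over all probe sets, with correlations of 0.970 to 0.997 between them, and no 2 arrays were identical. The smooth muscle markers Acta2, Myh11, Tagln, Cnn1, Smtn, Lmod1 and Des had a mean level of 9.66 to 10.58 on every array, which is the tissue on the label. A-CRF 1, A-CRF 4 and Control 1 stood apart by a larger difference between the 3′ and 5′ probe sets of GAPDH, 1.58 to 1.90 log2 units against 0.37 to 0.55 on the other arrays. This difference is used as a sign of shorter transcripts. The group difference of each member is therefore also given without these 3 arrays, a setting added after the data were seen. Spreads and correlations were not computed in that setting. No label says that the samples came from separate animals, and the p-values therefore reflect only how much these samples scatter, part of which may be technical.

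Ucp1, the uncoupling protein itself (Entrez gene 24860), ranged on the A-CRF arrays from 5.31 to 9.75, with a median of 6.80. On the Control arrays it ranged from 6.88 to 9.07, with a median of 7.76. The groups overlapped, but not evenly. A-CRF 2, A-CRF 4, A-CRF 3 and A-CRF 5, at 5.31, 5.36, 5.51 and 6.15, lay below all 6 Control arrays, and A-CRF 1, at 9.75, lay above all of them. The other A-CRF arrays were within the Control range, A-CRF 7 at 7.46, A-CRF 8 at 7.66 and A-CRF 6 at 8.42. On A-CRF 2, A-CRF 3 and A-CRF 4 Ucp1 was below 5.82, near the lowest value of the table. Of the 3 arrays of large GAPDH difference, A-CRF 1 and Control 1 were among the 3 of highest Ucp1, at 9.75 and 8.75. The other, A-CRF 4, was among the lowest, at 5.36.

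The 8 A-CRF arrays averaged 6.95 ± 1.63 for Ucp1 (SD, n = 8), and the 6 Control arrays averaged 7.99 ± 0.80 (SD, n = 6). The difference was -1.04 ± 0.68 log2 units (SE), a 2.05-fold lower mean, and it did not pass the test (limma, adjusted p = 0.56). Its 95% interval ran from -2.48 to 0.41, so these arrays allow anything from a 5.59-fold lower to a 1.33-fold higher level. An exact permutation test of the means over all groupings of the arrays gave a two-sided p = 0.18. The difference was -1.44 without A-CRF 1 and -1.08 without the 3 arrays of large GAPDH difference.

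Cidea, a lipid droplet protein abundant in brown fat (Entrez gene 291541), ranged from 7.96 to 9.24 in A-CRF, with a median of 8.59. It ranged from 8.39 to 10.35 in Control, with a median of 9.06. A-CRF 5, A-CRF 2 and A-CRF 4 lay below all Control arrays and none lay above them. Unlike Ucp1, Cidea was well above the lowest values on all 14 arrays. The means were 8.57 ± 0.50 (SD, n = 8) and 9.16 ± 0.68 (SD, n = 6), and the difference of -0.59 ± 0.29 (SE, limma, adjusted p = 0.38; 95% interval -1.21 to 0.03) did not pass. It shrank to -0.35 without Control 6, the array of highest Cidea, and was -0.62 without the 3 arrays of large GAPDH difference.

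Cox8b, a subunit of cytochrome c oxidase made mainly in heart, skeletal muscle and brown fat (Entrez gene 25250), ranged from 5.33 to 8.36 in A-CRF, with a median of 6.14. It ranged from 6.28 to 8.63 in Control, with a median of 6.98. The arrays at its low end were those at the low end of Ucp1: A-CRF 4, A-CRF 2, A-CRF 3 and A-CRF 5 lay below all Control arrays, at 5.33, 5.41, 5.58 and 5.81. Its means were 6.44 ± 1.11 (SD, n = 8) and 7.25 ± 0.84 (SD, n = 6). The difference of -0.81 ± 0.51 (SE, limma, adjusted p = 0.54; 95% interval -1.89 to 0.28) did not pass, and it was -0.53 without Control 6 and -0.83 without the 3 arrays.

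Slc27a2, which activates very long chain fatty acids and is best known from liver and kidney (Entrez gene 65192), ranged from 5.45 to 5.83 in A-CRF, with a median of 5.52. In Control it ranged from 5.54 to 6.004, with a median of 5.71. Only 3 of the 14 arrays, A-CRF 6, Control 3 and Control 6, were above the bound of 5.82, so its differences are read near the lowest values of the table. A-CRF 2, A-CRF 4, A-CRF 5 and A-CRF 7 lay below all Control arrays. The difference of -0.16 ± 0.08 (SE, limma, adjusted p = 0.37; 95% interval -0.33 to 0.01) did not pass, and was -0.18 without the 3 arrays.

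**Figure D1:**
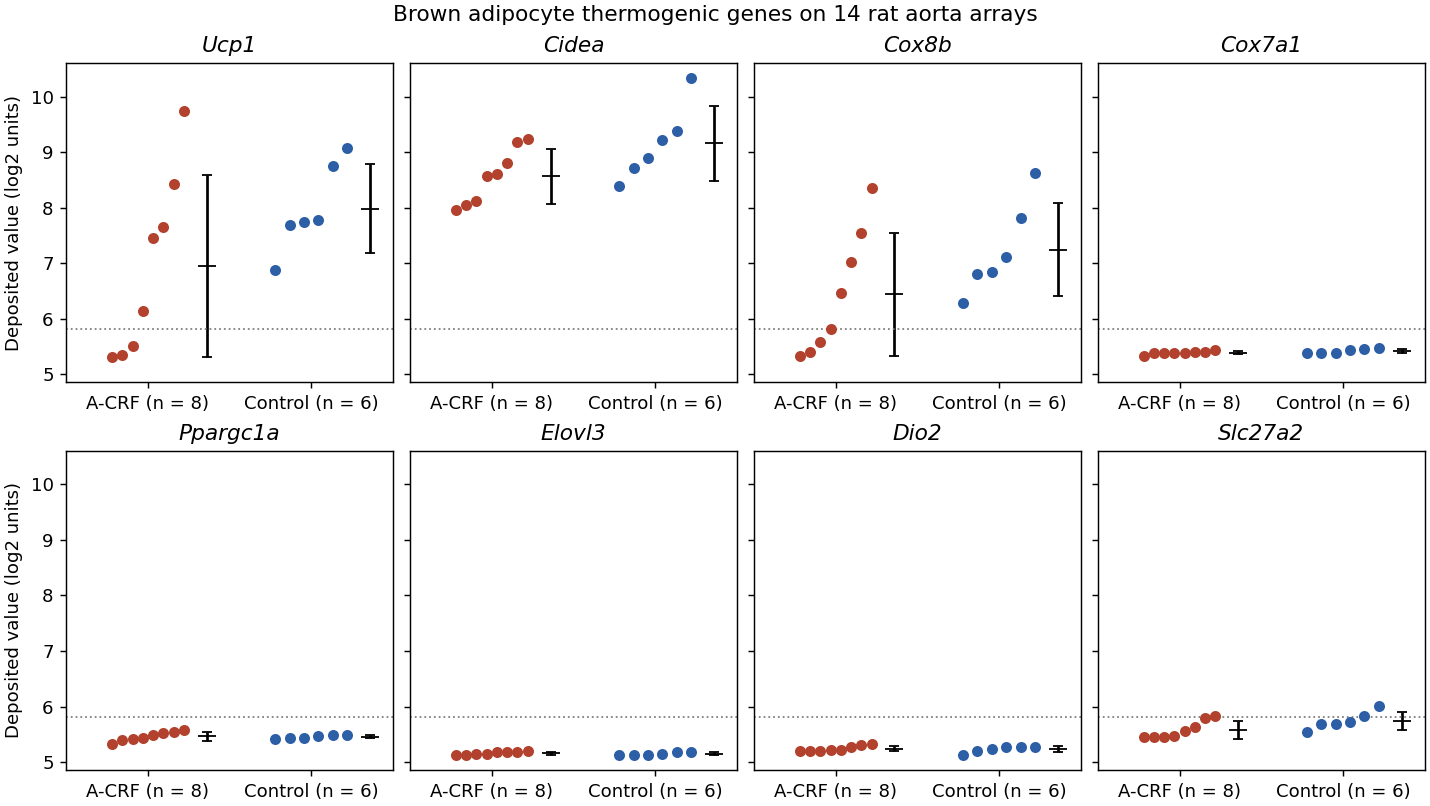
Deposited values in log2 units (vertical axis) of the 8 genes on 8 A-CRF and 6 Control arrays. Each point is an array, ordered by value within its group; black marks and bars are the mean ± SD, and the dotted line is 5.82, 1 unit above the lowest value of the table. Ucp1 in A-CRF runs from 5.31 to 9.75, while Cox7a1, Ppargc1a, Elovl3 and Dio2 stay below the line.

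The remaining 4 genes gave little signal. Cox7a1, the heart and muscle form of another cytochrome c oxidase subunit, lay between 5.33 and 5.47 on all 14 arrays. Elovl3, which elongates saturated fatty acids and rises in brown fat with cold, lay between 5.12 and 5.19. Dio2 lay between 5.13 and 5.33. Ppargc1a lay between 5.33 and 5.58 on its brightest probe set, and its other 2 probe sets lay between 5.06 and 5.52. On A-CRF 1, the array of highest Ucp1, Cox7a1 was at 5.44, Ppargc1a at 5.40, Dio2 at 5.20 and Elovl3 at 5.15. None of the 4 was above the bound on any array, so little can be read from them about the groups or a likeness to Ucp1. The bound is a set distance from the lowest value and no measured limit of detection. What these probe sets could detect was not tested. Their differences were -0.03 ± 0.02 for Cox7a1, 0.01 ± 0.03 for Ppargc1a, 0.01 ± 0.02 for Elovl3 and 0.01 ± 0.03 for Dio2 (SE, limma, lowest adjusted p of the 4 = 0.67). Without the 3 arrays of large GAPDH difference they were -0.03, 0.03, 0.02 and 0.02.

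In the count over the 8 genes, 0 passed an adjusted p of 0.05 in limma, 0 had an unadjusted p under 0.05, and 0 passed an exact rank-sum test adjusted in the same way. Of all 31042 probe sets 2.05% passed in limma (636, of which 391 higher and 245 lower), 14.4% had an unadjusted p under 0.05 and 1.38% passed the rank-sum test. The 636 rests in part on single arrays, being 307 without Control 5 and 979 without A-CRF 1. At these shares, 0 of 8 is no sign that the 8 genes differ from other probe sets. Over the 14217 genes, the base for the gene lists that follow, 2.99% passed in limma and 18.6% had an unadjusted p under 0.05. Among the 8 the difference was negative for 5 and positive for 3, with a median of -0.09, and negative for each of the 4 genes above the bound on any array, with a median of -0.70. Over all 14217 genes 51.2% of differences were negative and the median was -0.00119. The 4 genes were read from the same arrays, so their shared sign is not 4 separate observations.

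**Figure D2:**
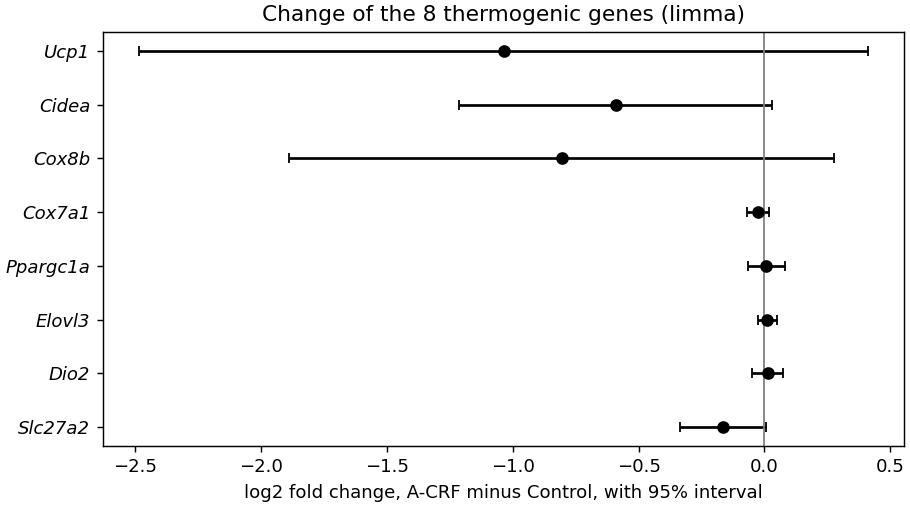
Log2 fold change of each gene, A-CRF minus Control (horizontal axis), with its 95% interval from limma over 14 arrays. The intervals of Ucp1 (-2.48 to 0.41), Cidea and Cox8b are wide and include 0, and those of the 4 genes near the lowest values are narrow around 0.

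The spread between arrays was extreme for 3 of the genes. Ranked by SD over the A-CRF arrays among all 31042 probe sets, Ucp1 was at place 1, Cox8b at 5 and Cidea at 136. Cox8b was at place 18 without A-CRF 1 and at 9 without A-CRF 2. Over the Control arrays Cox8b was at place 13, Ucp1 at 14 and Cidea at 31, which became 58, 36 and 183 without Control 6. Without Control 2 Cox8b was at 22 and Ucp1 at 35, without Control 1 Ucp1 was at 23, and without Control 3 Cidea was at 17. For comparison, SDs over all probe sets had a median of 0.06 in A-CRF and 0.05 in Control. That median includes the 59.0% of probe sets with a mean near the lowest value. Large SDs were also found outside the 8 genes. In A-CRF and Control they were 0.91 and 1.27 for the white adipocyte marker Pck1, and 1.08 and 0.57 for the mitochondrial gene Chchd10. Not all white adipocyte markers had such SDs, with 0.24 and 0.20 for Plin4. Slc27a2 was at place 3420 in A-CRF and 2313 in Control, and Elovl3 at 27360 and 25631. Ucp1 held place 1 in A-CRF after adding an offset of 16 to the linear values and with quantile normalization. It also held it whichever 1 of the A-CRF arrays was left out. Leaving out a Control array cannot change that place.

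The A-CRF arrays did not spread more than the Control arrays for every gene. The SD of Ucp1 was 2.05 times as large in A-CRF as in Control, that of Cox8b 1.32 times and that of Cidea 0.73 times. The ratio of Cidea rested on 1 array, since it became 1.25 without Control 6, and that of Cox8b was then 1.99. Without A-CRF 1 the ratio of Cox8b was 1.03 and the SD of Ucp1 in A-CRF was 1.28, still above the 0.80 of Control. No test was run on these ratios.

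The promoters of Ucp1, Cidea and Cox8b are shown because these 3 genes had the largest spread and followed a like course over the arrays. Each sequence is the 250 bases before the start of the gene in RefSeq (build GRCr8), printed 5′ to 3′ on the strand of the gene, and all 8 genes were found in that table. Ucp1 is at chr19:41721422-41721671 on the minus strand, Cidea at chr18:63164567-63164816 on the plus strand and Cox8b at chr1:205408274-205408523 on the minus strand. Capitals mark matches, on either strand, to a TATA box (TATAAA), the core of a cyclic AMP response element (TGACG), a GC box (GGGCGG) or a half-site of nuclear receptors (AGGTCA).
Ucp1: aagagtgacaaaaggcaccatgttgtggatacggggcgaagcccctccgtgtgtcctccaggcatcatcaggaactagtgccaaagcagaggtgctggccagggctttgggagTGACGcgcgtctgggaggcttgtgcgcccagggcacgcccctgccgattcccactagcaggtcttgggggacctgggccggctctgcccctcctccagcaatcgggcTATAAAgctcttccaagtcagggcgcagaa
Cidea: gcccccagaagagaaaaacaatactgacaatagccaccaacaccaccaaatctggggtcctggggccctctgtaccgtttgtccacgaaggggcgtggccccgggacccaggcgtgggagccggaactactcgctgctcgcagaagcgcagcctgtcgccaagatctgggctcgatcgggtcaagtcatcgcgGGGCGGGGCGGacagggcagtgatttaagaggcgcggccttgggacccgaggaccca
Cox8b: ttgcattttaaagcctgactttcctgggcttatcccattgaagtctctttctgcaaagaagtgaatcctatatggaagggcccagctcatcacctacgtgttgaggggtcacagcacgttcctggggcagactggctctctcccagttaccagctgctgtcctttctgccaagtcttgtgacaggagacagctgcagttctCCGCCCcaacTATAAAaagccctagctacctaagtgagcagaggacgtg
The TATA box letters start 30 bases before the start of Ucp1 and 39 bases before that of Cox8b. The cyclic AMP core starts 137 bases before the start of Ucp1. The GC box letters occur in Cidea, as a pair that share their last and first base, and in Cox8b on the opposite strand. The half-site letters were in none of the 3 windows. Of 33469 promoter windows of the same length, 12.9% held the TATA box letters, 18.2% the cyclic AMP core, 30.5% the GC box and 14.1% the half-site, so each match is common. A match describes the letters only.

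Ucp1 and Cox8b followed nearly the same course over the arrays. Their Pearson correlation over 14 arrays was 0.98 and Spearman's rho was 0.98 (permutation p = 2e-05 for each, the smallest given by the 100000 resamples, adjusted p = 2.8e-04 and 1.9e-04 over the 28 pairs of the 8 genes). Within A-CRF r was 0.99 and within Control 0.97. Without the 2 arrays farthest from the median of Ucp1 it was 0.97. Ucp1 and Cidea had r = 0.82 and rho = 0.93 over 14 arrays (permutation, adjusted p = 0.0030 and 1.9e-04), with 0.88 within A-CRF, 0.86 within Control and 0.75 without the 2 arrays. Cidea and Cox8b had r = 0.90 and rho = 0.93.

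Slc27a2 was looser. Its correlation with Ucp1 was 0.76 and rho 0.77 over 14 arrays (permutation, adjusted p = 0.0061 and 0.011), and r was 0.68 without the 2 arrays. Within the 8 A-CRF arrays r was 0.81 and within the 6 Control arrays 0.59. Without the 2 arrays of a group farthest from its median Ucp1, r was 0.38 in A-CRF and -0.06 in Control. None of the 22 pairs with Cox7a1, Ppargc1a, Elovl3 or Dio2 passed an adjusted p of 0.05. All genes of an array share its RNA and hybridisation, so these correlations describe arrays, not separate measurements.

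The mean level of 11 markers listed for white adipocytes, the lipid-storing cells that can lie in the same fat, moved with the 4 genes. Of these, Plin1, Lipe and Pnpla2 also stand on the list of the adrenergic signal to brown fat. Fabp4 also stands on that of fatty acid uptake and oxidation. The level is therefore not particular to white adipocytes. Of 12 measured markers 11 were above the bound on at least 1 array, the exception being Lep (leptin), at 5.13 to 5.24. The sum of the 12 on the linear scale was 1711 to 5243 on the A-CRF arrays and 2992 to 5862 on the Control arrays. The mean of the 11 markers was 6.98 to 8.35 in A-CRF and 7.65 to 8.51 in Control. None of the 12 passed in limma, 3 had an unadjusted p under 0.05, 0 passed the rank-sum test, and the median difference was -0.25. That median was -0.12 without A-CRF 4, -0.14 without A-CRF 2, -0.16 without Control 6 and -0.17 without the 3 arrays of large GAPDH difference. Taken from differences between group medians in place of means, it was -0.06. The largest differences were -1.11 ± 0.35 for Dgat2, which makes triglyceride (SE, adjusted p = 0.12), and 0.82 ± 0.54 for Pck1, which makes its glycerol (adjusted p = 0.56). Without A-CRF 1, Dgat2 passed at -1.30 (limma, adjusted p = 0.034), and without A-CRF 7, Plin4 passed at -0.46 (adjusted p = 0.043).

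Over 14 arrays the white adipocyte level and Cidea had r = 0.83 and rho = 0.73 (permutation, adjusted p = 0.0026 and 0.022 over 16 relations). With Cox8b they were 0.79 and 0.75 (adjusted p = 0.0044 and 0.022), with Slc27a2 0.78 and 0.74 (adjusted p = 0.0044 and 0.022) and with Ucp1 0.74 and 0.71 (adjusted p = 0.012 and 0.024). Within A-CRF the r of Ucp1 was 0.71 (exact permutation p = 0.054) and within Control 0.87 (exact permutation p = 0.0083). The r within A-CRF fell to 0.47 without A-CRF 2 and A-CRF 4. The r within Control fell to 0.56 without Control 1 and Control 6. Without A-CRF 2 and A-CRF 4, the arrays farthest from the median white adipocyte level, the r of Ucp1 was 0.55 (permutation p = 0.063), so over the other 12 arrays it no longer passed. It was 0.79 for Cidea (permutation p = 0.0023), 0.67 for Cox8b (p = 0.017) and 0.72 for Slc27a2 (p = 0.0072).

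A-CRF 3 departed from that relation. It had the third highest white adipocyte level of the 14 arrays, 8.11, and the highest Adipoq (adiponectin), 9.02, but the third lowest Ucp1, 5.51, and Cox8b at 5.58. A-CRF 1 was next to it in white adipocyte level and had the highest Ucp1, 9.75. Left out after its value was seen, A-CRF 3 moved the r of Ucp1 from 0.74 to 0.91 over the other 13 arrays. With the white adipocyte level as a covariate, the difference of Ucp1 between the groups was -0.61 ± 0.49 (SE, limma, adjusted p = 0.69). That of Cox8b was -0.47 and that of Cidea -0.38. The level holds genes also listed for brown fat, so this covariate may take out brown fat signal too, which was not tested.

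**Figure D3:**
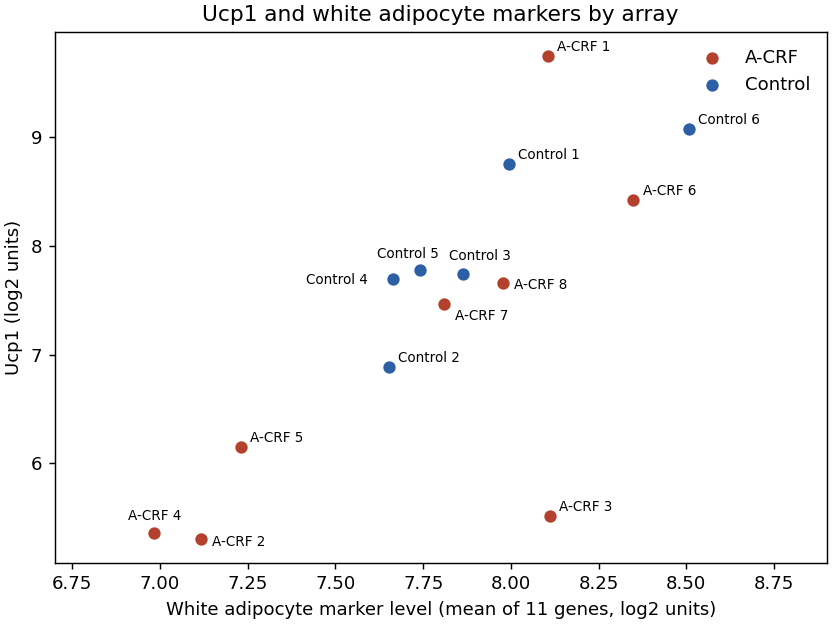
Ucp1 (vertical axis, log2 units) against the mean level of 11 white adipocyte markers (horizontal axis, log2 units), 1 point per array, 8 A-CRF and 6 Control. Ucp1 is higher where the markers are higher (r = 0.74), and A-CRF 3 lies far below the other arrays of like marker level.

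**Figure D4:**
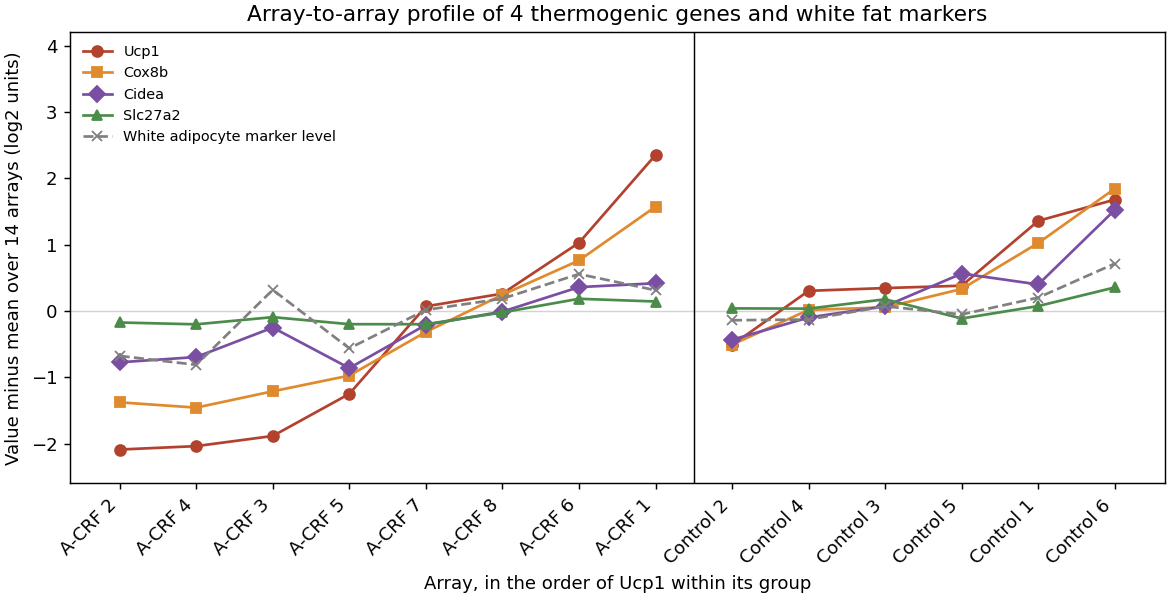
Values of Ucp1, Cox8b, Cidea, Slc27a2 and the white adipocyte level on each array minus their mean over 14 arrays (vertical axis, log2 units), with arrays ordered by Ucp1 within each group (horizontal axis). Each line joins the arrays of 1 group; Cox8b follows Ucp1 (r = 0.98), and the white adipocyte level departs from both on A-CRF 3.

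Other markers of brown adipocytes, fixed as a list, gave a mixed picture. Of 12 measured, 0 passed in limma, 1 had an unadjusted p under 0.05, 0 passed the rank-sum test, and the median difference was -0.03. The largest differences were 0.25 ± 0.15 for S100b and -0.14 ± 0.08 for Plin5, a lipid droplet protein of oxidative tissues (SE, limma, adjusted p = 0.48 and 0.52). The lowest adjusted p of the list was 0.18, for Epsti1 at 0.08 ± 0.03 (SE, limma), a gene below the bound on all arrays. Only 7 of the 12 were above the bound on any array. The transcription factor Ebf2 (5.13 to 5.58) and the lineage marker Zic1 (5.35 to 5.56) were not. Among the 7, the correlation with Ucp1 over 14 arrays had a median of 0.61. It was 0.88 for Plin5, 0.72 for the beta3-adrenergic receptor Adrb3, 0.66 for Pank1, 0.61 for Ucp3, 0.24 for Prdm16, a transcription factor of brown fat, -0.02 for S100b and -0.15 for the potassium channel Kcnk3. These values are descriptions with no test.

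Genes of fuel use, listed as partners of heat production, had mostly negative differences that did not pass. Of 24 measured genes of fatty acid uptake and oxidation 0 passed in limma or in the rank-sum test, 6 had an unadjusted p under 0.05, which is 6 of 24 against 18.6% of all genes, and 21 had a negative difference. The median was -0.24, and -0.14 without Control 6. The largest were -0.76 ± 0.30 for the thiolase Acaa2 and -0.52 ± 0.22 for Etfb, which passes electrons to the respiratory chain (SE, adjusted p = 0.22 and 0.27). Of 17 respiratory chain genes 0 passed in either test, 12 had an unadjusted p under 0.05, against 18.6% of all genes, and 16 were negative, with a median of -0.25. The largest were -0.43 ± 0.14 for Sdhb and -0.36 ± 0.15 for Uqcrc1, subunits of complexes II and III (adjusted p = 0.13 and 0.25).

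The array A-CRF 1, with the highest Ucp1, bore on these counts. Without it, the dehydrogenases Acadl and Acadvl of fatty acid oxidation and the respiratory chain genes Cox5b, Cox7c, Ndufb9 and Uqcrc1 passed, with differences of -0.55 to -0.24 log2 units (limma, highest adjusted p = 0.049). Without the 3 arrays of large GAPDH difference, of which it is one, only Ndufb9 of these 6 passed, at -0.37 (limma, adjusted p = 0.043). The 8 thermogenic genes still gave 0 calls.

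Upstream, 0 of 17 brown fat transcription factors and coactivators passed in limma or in the rank-sum test, 3 had an unadjusted p under 0.05, and the median was -0.04. The largest differences were -0.22 ± 0.15 for Pparg, the master regulator of adipocytes, and 0.21 ± 0.07 for Klf11 (SE, lowest adjusted p = 0.18). Ppargc1b, the relative of Ppargc1a, lay between 5.78 and 6.31. Its r with Ucp1 over 14 arrays was 0.94, the highest of the 12 genes of this list above the bound, of which it alone was over 0.8. The median of the 12 was 0.38 and the lowest r was -0.26, for Cebpb, and these are descriptions with no test.

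Of 13 genes of the adrenergic signal, Adcy3, an adenylate cyclase, rose by 0.17 ± 0.04 (SE, limma, adjusted p = 0.034), 12 did not pass, and the median was -0.12. The rank-sum test called none of the 13, and the call of Adcy3 was lost in 9 of the 14 fits without 1 array (A-CRF 2, 3, 5 and 8 and Control 1, 2, 4, 5 and 6). Among 16 genes of the same families as the members, 0 passed in limma or in the rank-sum test, 5 had an unadjusted p under 0.05, and the median was -0.02. The largest differences there were -0.73 ± 0.23 for the fatty acid elongase Elovl6 (SE, adjusted p = 0.13) and -0.49 ± 0.27 for Cidec, the relative of Cidea in white fat (adjusted p = 0.45). Elovl6 passed without A-CRF 1 at -0.91 (limma, adjusted p = 0.0032). It also passed without the 3 arrays of large GAPDH difference, which include A-CRF 1, at -0.87 (limma, adjusted p = 0.013).

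The genes most like Ucp1 were sought among 8950 other genes above the bound on any array, by Pearson r over the 14 arrays. The 8 highest were Hadh (0.96), Hadhb (0.96), Isoc1 (0.94), Acadvl (0.94), Gys2 (0.94), Cpt1b (0.94), Chchd10 (0.94) and Cox7b (0.94). Hadh, Hadhb, Acadvl and Cpt1b act in mitochondrial fatty acid oxidation, Cox7b is a subunit of cytochrome c oxidase, Chchd10 is a mitochondrial protein and Gys2 a glycogen synthase. Within A-CRF the lowest r of the 8 genes was 0.94 and within Control 0.92. Chchd10 had the widest range of the 8, from 5.73 to 8.92 in A-CRF and 7.67 to 9.33 in Control. None of the 8 passed between the groups, with a lowest adjusted p of 0.22. They were chosen by this likeness, which is given with no test.

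By list, r with Ucp1 over 0.8 was found for 13 of 24 genes of fatty acid uptake and oxidation (median 0.83) and 9 of 15 of the respiratory chain (median 0.83). It was found for 2.10% of the 8950 genes (median 0.05). White adipocyte markers had a median of 0.70 and 3 of 11 over 0.8, and ran from 0.90 for Dgat2 to -0.41 for Nnat. Adipoq was at 0.50, Pck1 at 0.40 and Cfd at -0.05. Smooth muscle markers had a median of 0.34, endothelial markers 0.32 and macrophage markers -0.52. Genes within a list are not independent, and these are descriptions.

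**Figure D5:**
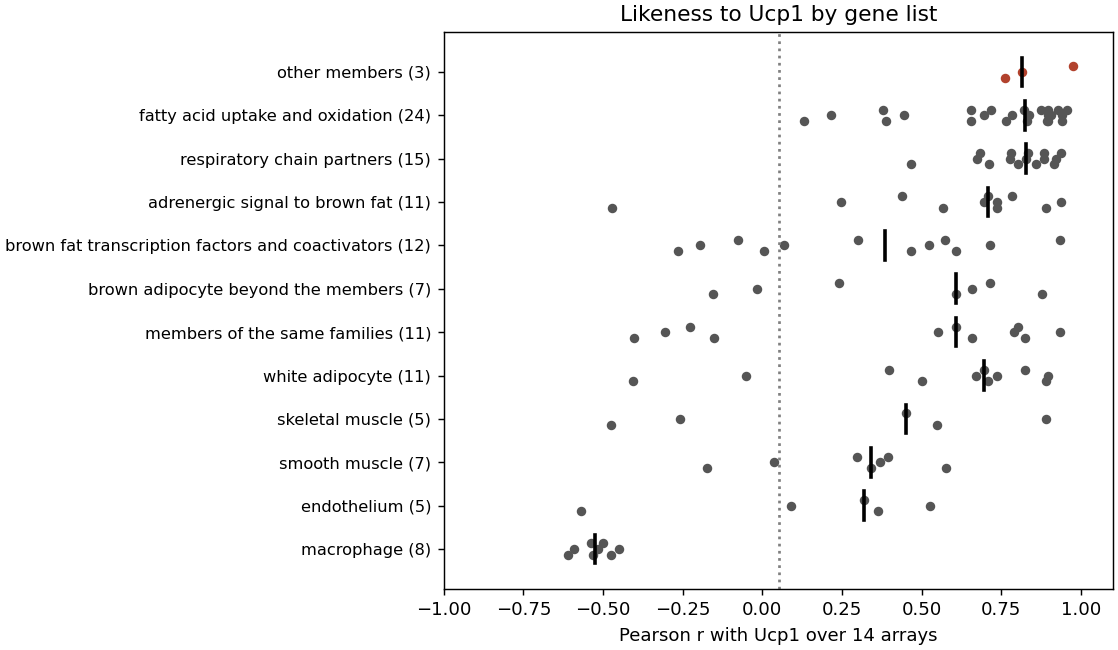
Pearson r with Ucp1 over 14 arrays (horizontal axis) for each gene above the bound on any array, by list, with the number of genes in brackets. Black bars are list medians, the dotted line is the median of 8950 genes (0.05), and the lists of fatty acid oxidation and the respiratory chain lie highest among the lists of other genes (0.83 for each).

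Markers of other cells that share these genes were read beside them. Cox8b, Cox7a1 and Ppargc1a are also known from striated muscle. Of 9 skeletal muscle markers 5 were above the bound on any array. The myosin heavy chains Myh2 and Myh4 and the troponin Tnnt3 were not, with a highest value of 5.69. The myosin heavy chain Myh1 lay at 7.94 to 9.26 in A-CRF and 8.70 to 9.51 in Control. Acta1 lay at 7.78 to 8.84 and 7.14 to 8.22. Over the 14 arrays r with Ucp1 was 0.89 for Myh1, 0.55 for Mb, 0.45 for Ckm, -0.26 for Tnni2 and -0.47 for Acta1. These values are given with no test. Ckm, the muscle creatine kinase, fell by 0.41 ± 0.08 in A-CRF (SE, limma, adjusted p = 0.023), and it lost its call without Control 5 and in the rank-sum test. The sum of the 9 on the linear scale was 874 to 1292 in A-CRF and 1008 to 1192 in Control. The mean level of the 5 above the bound had r = 0.61 and rho = 0.43 with Ucp1 over 14 arrays. These did not pass (permutation, adjusted p = 0.051 and 0.28), and r was 0.30 without the 2 arrays farthest from the median of that level. Of 7 cardiac markers 2 were above the bound on any array and 0 passed in limma or in the rank-sum test, with 2 at an unadjusted p under 0.05. The largest differences were 0.13 ± 0.10 for Ryr2 and -0.09 ± 0.04 for Tnnt2 (SE, limma, adjusted p = 0.63 and 0.31). The lowest adjusted p of the list was 0.24, for Myh7 at -0.09 ± 0.03 (SE, limma). Slc27a2 is also known from liver and kidney, and of 8 markers of these organs 0 passed in either test, 0 had an unadjusted p under 0.05, and the largest difference was -0.49 ± 0.25 for Alb (adjusted p = 0.41), followed by 0.33 ± 0.16 for Aqp1.

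Macrophage markers differed between the groups, with 7 of 8 higher in A-CRF, a median of 0.43 and 5 to 7 calls in the fits without 1 array, 5 without the 3 arrays of large GAPDH difference and 6 in the rank-sum test. They included Lyz2 at 0.76, C1qa at 0.65, Adgre1 at 0.53 and Csf1r at 0.44. Of the 7 smooth muscle markers Myh11 fell by 0.29 ± 0.07 (SE, limma, adjusted p = 0.043), and 6 did not pass. That list had 0 calls without A-CRF 1, 2, 3, 5 or 6 and without Control 1, 2, 4, 5 or 6, and its 1 call in the rank-sum test was Tagln. Without the 3 arrays of large GAPDH difference its call was also Tagln, at -0.22. None of 5 endothelial markers passed in limma or in the rank-sum test, 1 had an unadjusted p under 0.05, and the largest differences were 0.40 for Vwf and -0.20 for Kdr. The part of these cells in the values of the 4 thermogenic genes was not tested.

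The clock output gene Dbp, which follows the time of day in many tissues, was read beside Ucp1 after the data were seen. It was at 7.60 to 7.64 on A-CRF 6, A-CRF 7 and A-CRF 8 and at 5.52 to 6.04 on the other A-CRF arrays, among them the 4 with Ucp1 below all Control arrays. The 3 arrays of highest Ucp1 did not share that order: A-CRF 1, Control 6 and Control 1 had Dbp at 6.04, 5.99 and 5.79 and Ucp1 at 9.75, 9.07 and 8.75. The correlation of Dbp with Ucp1 was 0.54 within A-CRF (rho 0.55, exact permutation p = 0.15 and 0.17) and -0.77 within Control (rho -0.43, exact permutation p = 0.13 and 0.42). The sign in Control rested on Control 1 and Control 6, since r was 0.89 without these 2 arrays. In A-CRF r was 0.57 without A-CRF 7 and A-CRF 8. With Dbp as a covariate the difference of Ucp1 was -0.95 ± 0.67 (SE, limma, adjusted p = 0.59), and the part of the time of day was not tested.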

How the data were processed

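Total RNA of 14 thoracic aortas was labelled from oligo-dT primed cDNA and hybridised to a 1-colour Affymetrix array, per the labels' protocols. The deposited values, a single summary for each probe set on each array, were taken as log2. PLIER is the summary method according to the submitters' processing notes. The sources used here give no background correction, normalization between arrays or offset, and an offset would compress weak signals. Of 31099 probe sets, 57 controls were left out, 20826 had 1 gene symbol, 436 several and 9780 none. Groups were taken from the treatment label, and arrays numbered within a group in accession order.

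A-CRF was compared with Control on all 14 arrays with limma 3.58.1 (R 4.3.3), lmFit and eBayes, group as the only factor, 12 residual degrees of freedom, two-sided, with Benjamini-Hochberg adjustment over 31042 probe sets and a threshold of 0.05. The fit was tested on simulated data. Correlations used 100000 permutations over 14 arrays and all pairings within a group. The number of arrays limits precision. Promoters are from RefSeq.

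The members and lists were chosen with earlier results of these data known. Named genes were the 8 members, up to 4 genes past the threshold per list or else the 2 largest differences, and the 8 genes most like Ucp1. Alternatives were other normalizations, offset, dim filter, variance model, array weights, covariates, a rank-sum test, averaged probe sets and each array left out.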

Additional observations from a re-analysis of the deposited data

Results flagged for a closer look

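Among the 8 genes in 2 groups, 1 array was far from the rest of its group by Dixon's ratio. Cox7a1 was at 5.33 on A-CRF 7, the lowest of its group, with 5.39 as the next value and a gap of 0.55 of the group's range. Chance gives such a gap in about 5% of groups, and 16 groups were examined. All values of Cox7a1 lay near the lowest of the table.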

How the results depend on the processing

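None of the 8 genes passed the threshold in any alternative run, with 0 calls in each. Ucp1, Cidea, Cox8b, Slc27a2, Cox7a1 and Elovl3 kept their sign in all fits. Ppargc1a and Dio2, whose differences lay between -0.03 and 0.03 in every fit, changed sign in 5 and 2 fits. The difference of Ucp1 ranged from -1.44 to -0.80 in the fits without 1 array and from -1.09 to -0.61 in the others, of which the white adipocyte covariate gave the smallest size. The count of 636 probe sets over all genes was 1457 with array weights and 1041 with the GAPDH difference as a covariate. It ranged from 307 (without Control 5) to 979 (without A-CRF 1) in the fits that left out 1 array. The cause was not tested. The dim filter left out Cox7a1, Ppargc1a, Elovl3 and Dio2. Weak signal limits these 4 genes, and the spread between arrays limits the others.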
